A study of Danio rerio and Oryzias latipes with 22 samples.

Results

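Chemokines and chemokine receptors were examined in single-cell RNA sequencing of zebrafish and medaka heart ventricles after cryoinjury, a freezing injury of the ventricle apex. The members were every gene whose symbol begins with ccl, cxcl, ccr, cxcr or xcr and a number, leaving out *cxcl12*, *cxcr4* and *cxcl8* genes, *cxcr1* and *cxcr2*. This gave 68 of 37037 gene symbols in zebrafish and 15 of 23832 in medaka, 83 in all, and the rule goes by names and uses no measured value. The zebrafish members were 37 CC ligands, 11 CXC ligands, 16 CC or XC receptors and 4 CXC receptors, and the medaka members were 2 CC ligands, 2 CXC ligands, 8 CC or XC receptors and 3 CXC receptors. Every member had a unique molecular identifier (UMI, a counted RNA molecule), and at least 20 UMIs were counted for 28, 10, 11 and 4 zebrafish members of these families and for 2, 1, 6 and 3 medaka members. Medaka symbols were used as deposited, so the shorter medaka list does not count the chemokine genes of that genome.

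The fish were adult wild-type Tübingen zebrafish and CAB medaka, 6 to 18 months old per the labels. Zebrafish samples were 3 taken at 3 days post-injury (d.p.i.), 6 taken at 14 d.p.i. and 4 of uninjured ventricles, and for medaka these numbers were 3, 2 and 4. Atrium and bulbus arteriosus had been removed and whole ventricles dissociated. The study describes the samples of each time as biological replicates. The labels do not say whether hearts were pooled, and the p-values measure the spread between these samples.

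Chemokines are small secreted proteins that form gradients along which leukocytes crawl. CC and CXC ligands are told apart by the spacing of their first cysteines, and their receptors are membrane proteins that couple to inhibitory G proteins. Some pairs are the same across vertebrates, such as Ccl25 with Ccr9 and Cxcl11 with Cxcr3, whereas many fish CC ligands lie in tandem arrays and have no single mammalian counterpart. In the injured heart, chemokines are known for drawing in neutrophils first and monocytes and lymphocytes after them.

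Counts were UMIs, and levels are given as CPM, the UMIs of a gene per 1000000 nuclear UMIs, summed over the barcodes of a cell type in a sample. Levels are compared within a gene only. Between 1705 and 6039 zebrafish barcodes and between 2751 and 4855 medaka barcodes per sample passed the filter. It asked for at least 200 genes and at most 40% of UMIs from entries with an mt name. A sample held 4882093 to 42211010 nuclear UMIs (zebrafish) or 12703219 to 36957851 (medaka). In zebrafish the limit missed mitochondrial entries under other names, which nuclear UMIs leave out, so kept barcodes can exceed 40%. In 14 d.p.i. zebrafish sample 1, 7298643 of 12788618 kept UMIs were nuclear. The limit kept 2462 of 2734 barcodes in uninjured zebrafish sample 1 and 2889 of 2889 in sample 3. At most 0.364% of a library's barcodes also occurred in another library. Uninjured zebrafish samples 1 and 2 were counted with another gene list than the other 11 zebrafish samples, and it lacks 5 of the 68 members. For some member calls that lean on these 2 samples, the fit without them is given as well. Other genes of the pathway are given only from fits that kept these 2 samples. In bulk sums over a sample, fewer cells of a type and less RNA per cell cannot be told apart.

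By their highest mean level, most zebrafish CC ligand genes stood in leukocyte-like barcodes, although the one with the most UMIs, *ccl25b*, stood in epicardial-like barcodes. Of the 28 with at least 20 UMIs, 12 had their highest mean level in macrophage-like barcodes, 10 in T or NK-like barcodes, 4 in epicardial-like barcodes, 1 in cardiomyocytes and 1 in granulocytes. Some of these places were weak. *ccl39.6*, *ccl39.7* and *ccl39.9*, the last pair named after their values were seen, were highest in T or NK-like barcodes in only 3, 2 and 1 samples, with 46.5%, 60.1% and 38.2% of their UMIs in endothelial-like barcodes, and the granulocyte gene had 87.2% of its UMIs in unnamed barcodes. The other zebrafish families followed the macrophages as well, with 6 of 10 CXC ligands, 6 of 11 CC or XC receptors and 2 of 4 CXC receptors highest there. For *cxcl14* this place was weak, at 33.3 ± 104 CPM against 27.9 ± 23.0 CPM in epicardial-like barcodes (SD, n = 13). Its macrophage level reached 379 CPM in uninjured sample 3. Cell types were named from marker lists that hold no chemokine gene. The members and the chemokine genes left out by the rule were also kept out of the clustering. Clusters and levels still come from the same cells, so these sources are a description without a test.

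In T or NK-like barcodes, *ccl34b.4* averaged 4524 ± 3084 CPM and *ccl38.6* 2575 ± 1692 CPM (SD, n = 12), and both were highest in that type in 12 of 12 samples. The T or NK-like barcodes, 511 in all, held 74.7% of the 3660 *ccl34b.4* UMIs and 77.6% of the 2450 *ccl38.6* UMIs. A *ccl34b.4* UMI was seen in 62.8% of uninjured T or NK-like barcodes, in 69.2% of those from 3 d.p.i. and in 68.3% of those from 14 d.p.i., at median depths of 1459, 659 and 665.5 nuclear UMIs. In cardiomyocytes, which should lack the gene, the shares were 0.132%, 0.357% and 0.227%, at median depths of 13156, 12469 and 12514. Another ligand of these barcodes, *ccl36.1*, averaged 659 ± 612 CPM (SD, n = 12). These are fish ligands of large tandem groups, whose near-identical copies could split or share reads.

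Epicardial-like barcodes, the outer layer of the heart with its fibroblasts, were the main place of *ccl25b*, a ligand that in mammals guides T-cell progenitors to the thymus through CCR9. *ccl25b* averaged 1331 ± 714 CPM there (SD, n = 13), was highest there in 13 of 13 samples, and 94.0% of its 46028 UMIs lay in that type. *ccl44*, another fish CC ligand, had 87.5% of 745 UMIs in epicardial-like barcodes. *cxcl18b*, which is reported to attract neutrophils in zebrafish, averaged 642 ± 253 CPM in epicardial-like barcodes (SD, n = 13) and 58.4% of its 37847 UMIs lay there, with 32.1% in endothelial-like barcodes. Endothelial-like barcodes held 88.0% of the 15143 UMIs of *cxcl20*, at 171 ± 81.6 CPM (SD, n = 13).

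Macrophage-like barcodes carried another set of CC ligands and all 3 named *cxcl11* genes, which are ligands of Cxcr3 and attract macrophages in zebrafish. They held 81.5% of *ccl35.1* UMIs, 86.4% of *ccl34b.8*, 97.2% of *cxcl11.6*, 96.4% of *cxcl11.5* and 70.8% of *cxcl11.1*, the rest of the last lying mostly in endothelial-like barcodes (26.7%). *ccl38.1* was shared between macrophage-like (39.8%) and endothelial-like barcodes (33.5%).

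Receptors were also leukocyte genes for the most part. In macrophage-like barcodes, *cxcr3.2* averaged 157 ± 76.5 CPM and *ccr9a* 144 ± 97.8 CPM (SD, n = 13), with T or NK-like barcodes next for *ccr9a* at 103 ± 72.4 CPM (SD, n = 12). The gap between these types for *ccr9a* lay within the spread of either. *ccr12a* (77.0% of 418 UMIs) and *ccr12b.2* (67.8% of 363), 2 further CC receptors, also lay mainly in macrophage-like barcodes. *cxcr3.1* averaged 113 ± 97.9 CPM and *ccr2*, the monocyte receptor of mammals, 80.0 ± 83.0 CPM in T or NK-like barcodes (SD, n = 12). *cxcr5*, which brings B cells into follicles, was a B-cell gene, at 96.0 ± 42.9 CPM (SD, n = 6) and with 90.6% of 106 UMIs in B-like barcodes. These 6 samples were all from injured ventricles, as uninjured samples had at most 7 B-like barcodes.

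Not every receptor UMI lay in leukocytes. Endothelial-like barcodes held 66.9% of the 2231 *ccr8.1* UMIs and 53.6% of the 1426 *cxcr3.3* UMIs, a receptor described in zebrafish as taking up Cxcl11 without signalling. The mean levels of both were not highest there. *ccr8.1* was at 15.3 ± 8.69 CPM in endothelial-like, 15.6 ± 8.65 CPM in epicardial-like and 24.8 ± 22.9 CPM in mural-like barcodes (SD, n = 13, 13 and 9). *cxcr3.3* was at 8.32 ± 4.67 CPM in endothelial-like and 27.0 ± 12.6 CPM in macrophage-like barcodes (SD, n = 13). For *cxcr3.1*, 45.4% of 355 UMIs lay in cardiomyocytes, but at 0.880 ± 2.58 CPM (SD, n = 13), a spread wider than the mean. Its level in T or NK-like barcodes was 113 ± 97.9 CPM (SD, n = 12).

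**Figure D1:**
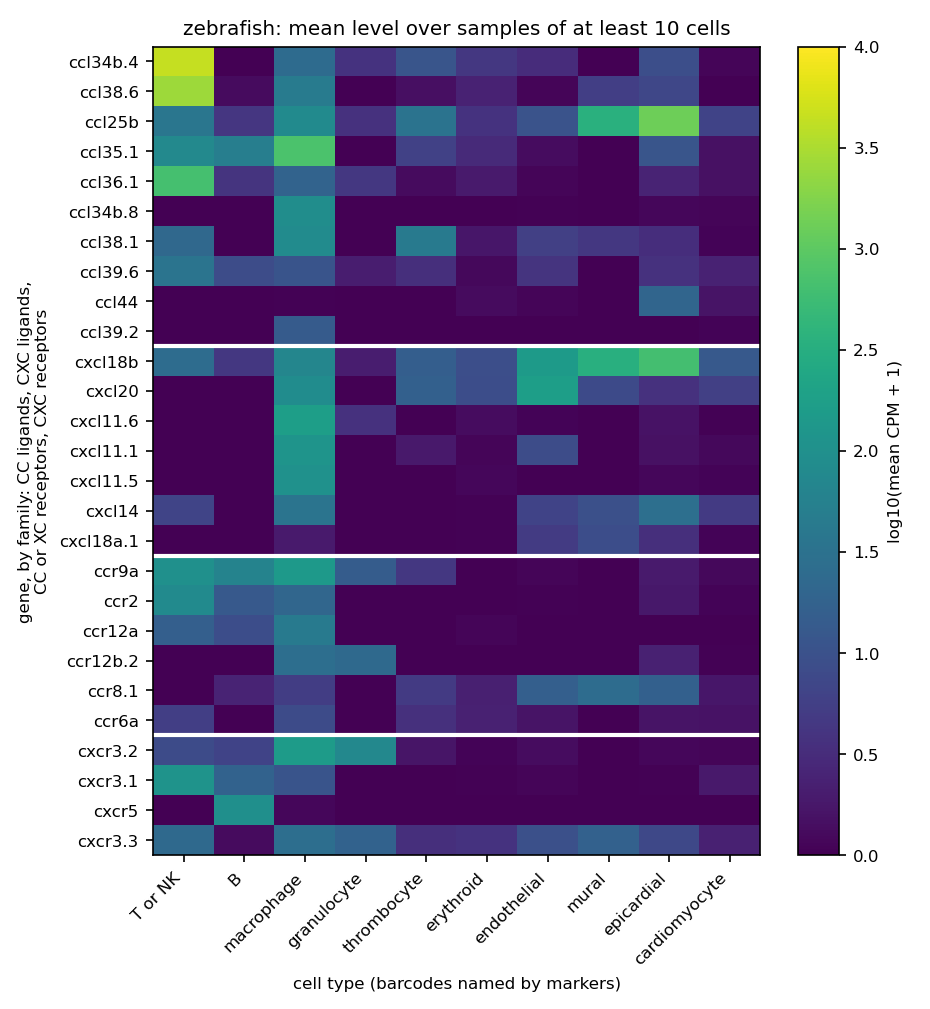
Heat map of the mean level of the named zebrafish genes (rows, by family) in each cell type (columns), as log10 of mean CPM plus 1 over samples with at least 10 barcodes of the type. *ccl34b.4* stands out in the T or NK column (mean 4524 CPM), *ccl25b* in the epicardial column (1331 CPM), *cxcl20* in the endothelial column (171 CPM) and *cxcr5* in the B column (96.0 CPM).

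The time course was tested per cell type with edgeR's quasi-likelihood test and Benjamini-Hochberg adjustment over all genes of the type, at a threshold of 0.05. For 3 d.p.i. against uninjured, 80 pairs of a zebrafish member and a cell type, over 40 members, passed the filter on low counts. Of these, 5 rose and 5 fell, against 6.24% of all gene and type pairs that rose and 5.41% that fell. In the 14 d.p.i. to uninjured comparison, 0 of 82 rose and 1 fell by edgeR (all genes, 1.92% and 1.78%), with 15 at an unadjusted p under 0.05. By DESeq2 2 rose and 1 fell. Shares of all genes here and below are by edgeR, and none is given for DESeq2. From the later comparison, 14 against 3 d.p.i., 4 of 80 rose and 2 fell, where 2.5% of all pairs rose and 3.59% fell. The 3 comparisons share samples in pairs, so their values are given side by side and their overlap is no result.

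Epicardial-like barcodes made most of these calls. Of 17 members tested there, 3 rose and 4 fell at 3 d.p.i. against uninjured, where 15.7% of all epicardial genes rose and 13.7% fell. The members' median log2 change was -1.02, and that of all genes -0.01. Later, 4 members rose and 2 fell at 14 d.p.i. against 3 d.p.i. (all genes, 10.9% and 15%). Against uninjured, 1 fell and 0 rose at 14 d.p.i. by edgeR (all genes, 0.767% and 0.919%), with 5 at an unadjusted p under 0.05, and DESeq2 also called 1 lower and 0 higher.

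*ccl25b*, the ligand with the most UMIs in this layer, was low at 3 d.p.i. Its epicardial level was 1032, 645, 1029.9 and 1738 CPM in the 4 uninjured samples and 512, 508 and 382 CPM in the 3 d.p.i. samples, and the 6 later samples had 1043 to 2401 CPM with a median of 2051. All 3 samples at 3 d.p.i. lay below every other sample. The log2 change was -1.45 ± 0.34 (SE) at 3 d.p.i. against uninjured (adjusted p = 0.00644) and 2.18 ± 0.34 at 14 d.p.i. against 3 d.p.i. (adjusted p = 0.000864). The change at 14 d.p.i. against uninjured, 0.73 ± 0.28, did not pass (adjusted p = 0.189).

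The epicardial-like barcodes at 3 d.p.i. came largely from other clusters than those of uninjured ventricles. A cluster led by *fn1a*, *col12a1b* and *postnb*, genes of extracellular matrix, held 388 of 503 epicardial-like barcodes at 3 d.p.i., against 3 of 938 in uninjured samples, and 338 of 2503 later, at 14 d.p.i. In that cluster *ccl25b* was at 234, 363 and 319 CPM in the 3 d.p.i. samples. In the cluster led by *sostdc1a*, *vmo1a* and *dpt* it was at 1138, 5668 and 1022 CPM at 3 d.p.i. (75, 19 and 17 barcodes), against 343 to 2916 CPM in uninjured samples. Within the *sostdc1a* cluster the *ccl25b* ranges overlapped, and the low values at 3 d.p.i. stood in the *fn1a* cluster. Another cluster, with *tcf21* among its leading genes, held 509 of the 938 uninjured barcodes. Only 4 barcodes from 3 d.p.i. fell into it, so *ccl25b* was not compared within that cluster. The part of this cluster shift in the *ccl25b* change was not tested. A *ccl25b* UMI was found in 57.1% of uninjured epicardial-like barcodes, in 66.8% from 3 d.p.i. and in 68.5% from 14 d.p.i., but the 3 d.p.i. barcodes were deeper (medians of 5152.5, 25004 and 4416 UMIs). After thinning to 1000 UMIs, which left out 65, 17 and 214 barcodes, the shares were 37.6%, 29.0% and 47.4%, against 0.0455%, 1.11% and 0.602% of cardiomyocytes. Over all kept barcodes of a sample, *ccl25b* was at 82.3, 168 and 80.7 CPM at 3 d.p.i., within the 31.5 to 181 CPM of uninjured samples.

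The other ligands lower at 3 d.p.i. were sparse. *cxcl14*, a ligand without an agreed receptor, was at 9.41, 6.95 and 4.50 CPM at 3 d.p.i., against 54.8, 44.0, 16.0 and 31.3 CPM in uninjured epicardial-like barcodes (log2 change -2.60 ± 0.85, edgeR adjusted p = 0.0336), with no overlap. It rose at 14 d.p.i. against 3 d.p.i. (2.36 ± 0.81, adjusted p = 0.0454), where the 14 d.p.i. samples spread over 3.95 to 75.4 CPM. Without uninjured samples 1 and 2 both calls were lost (adjusted p = 0.167 and 0.0671), and leaving out 1 sample ended the call at 3 d.p.i. in 6 of 13 cases and the later one in 9 of 13 (adjusted p up to 0.114 and 0.154).

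*ccl38.6* and *ccl34b.4*, the ligands of T or NK-like barcodes, were also counted in epicardial-like barcodes. For *ccl38.6* there was 1 UMI at 3 d.p.i., with 2 later at 14 d.p.i., against 85 in uninjured samples, where replicates 1, 2 and 4 stood at 45.1, 23.2 and 9.96 CPM and replicate 3 at 0. The UMI ratio scaled to depth was 0.00452 at 3 d.p.i. (95% counting interval 0.000113 to 0.0259) and 0.0094 at 14 d.p.i. (0.00112 to 0.035), and both calls passed (adjusted p = 0.00147 and 0.0113). The gene was filtered out as too low, and so not tested, without uninjured samples 1 and 2. *ccl34b.4* was at 0, 0.556 and 1.06 CPM at 3 d.p.i. and at 40.2, 5.79, 0 and 6.76 CPM in uninjured samples (adjusted p = 0.0479), and this call was kept in only 4 of 13 fits without 1 sample and lost without uninjured samples 1 and 2 (adjusted p = 0.268). The leukocyte marker list summed to 1.4 to 4.2 CPM in these barcodes at 3 d.p.i. and 2.5 to 16.2 CPM in uninjured samples. The NK-like marker *nkl.2* reached 0.523 CPM at 3 d.p.i. and 15.8 CPM in uninjured samples, while *lck* was at 0 in every sample. These are single genes of their lists. Of 14 NK-like genes, 7 were at 0 at 3 d.p.i. and 7 in uninjured samples, and of 15 T-lymphocyte genes, 9 and 8. The 3 d.p.i. samples held more epicardial-like UMIs, so these counts are at unlike depth. The part of lymphocyte RNA in the *ccl38.6* and *ccl34b.4* values was not tested.

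Higher at 3 d.p.i. in epicardial-like barcodes were *ccl38.1*, *ccr12b.2* and *cxcl18a.1*. *ccl38.1* was at 15.4, 4.17 and 6.35 CPM at 3 d.p.i., against 1.22, 0, 0.843 and 0.356 CPM in uninjured samples, and the 14 d.p.i. samples reached 0.718 CPM at most. Every 3 d.p.i. sample lay above every other sample. The log2 change was 3.66 ± 0.76 against uninjured (adjusted p = 0.00344, 113 UMIs at 3 d.p.i. and 3 in uninjured samples). For 14 against 3 d.p.i. it was -3.87 ± 0.60 (adjusted p = 0.000901).

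*ccr12b.2* had 74 UMIs in epicardial-like barcodes at 3 d.p.i. (7.32, 3.76 and 5.03 CPM) and 0 in the uninjured ones, which makes it at least 9.47-fold higher, against a floor of 3 UMIs over the uninjured group (adjusted p = 0.00229). It fell at 14 d.p.i. against 3 d.p.i. (0 to 0.692 CPM, log2 change -3.87 ± 0.65, adjusted p = 0.00186). *cxcl18a.1*, a relative of *cxcl18b*, was at 2.35, 3.89 and 9.0 CPM at 3 d.p.i., against 0, 0, 0 and 0.711 CPM in uninjured samples (3.58 ± 1.29, adjusted p = 0.0480). Its call was lost without any 1 of 10 of the 13 samples, and without uninjured samples 1 and 2 (adjusted p = 0.117).

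At 3 d.p.i. the macrophage list was also higher in these barcodes than in uninjured samples. The macrophage marker list summed to 291 to 443 CPM in epicardial-like barcodes at 3 d.p.i. and 148 to 243 CPM in uninjured samples. The general leukocyte list, given above for the same barcodes, was not higher at 3 d.p.i., and its sums were far smaller than these. *marco* was at 0.794 to 10.5 CPM at 3 d.p.i. and at most 0.843 CPM in uninjured samples. *mfap4* was at 0.974 to 3.44 CPM at 3 d.p.i. and at 0 in uninjured samples. Both are single genes of the macrophage list. Of 17 macrophage genes in the list, 1 was at 0 at 3 d.p.i. and 5 were at 0 in uninjured samples. These counts are at unlike depth, with 3778333 to 7190049 nuclear UMIs per sample at 3 d.p.i. and 820918 to 2811239 in uninjured samples. The part of macrophage RNA in the *ccl38.1*, *ccr12b.2* and *cxcl18a.1* changes was not tested.

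Between 3 and 14 d.p.i., *ccl44* and *ccl39.6* rose in epicardial-like barcodes. *ccl44* was at 5.74 to 57.6 CPM at 14 d.p.i. with a median of 39.0, against 8.10, 2.64 and 3.97 CPM at 3 d.p.i., and its uninjured range was 1.16 to 16.9 CPM (3.02 ± 0.73 at 14 against 3 d.p.i., edgeR adjusted p = 0.00843). *ccl39.6* was at 0 to 9.69 CPM at 14 d.p.i., against 0.278 to 0.529 CPM at 3 d.p.i. (3.48 ± 0.83, adjusted p = 0.00756). For both genes 14 d.p.i. samples 1 and 2 were among the high ones and the groups overlapped. Both calls were lost without 3 d.p.i. sample 2 (adjusted p = 0.0602 for *ccl44* and 0.0571 for *ccl39.6*).

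**Figure D2:**
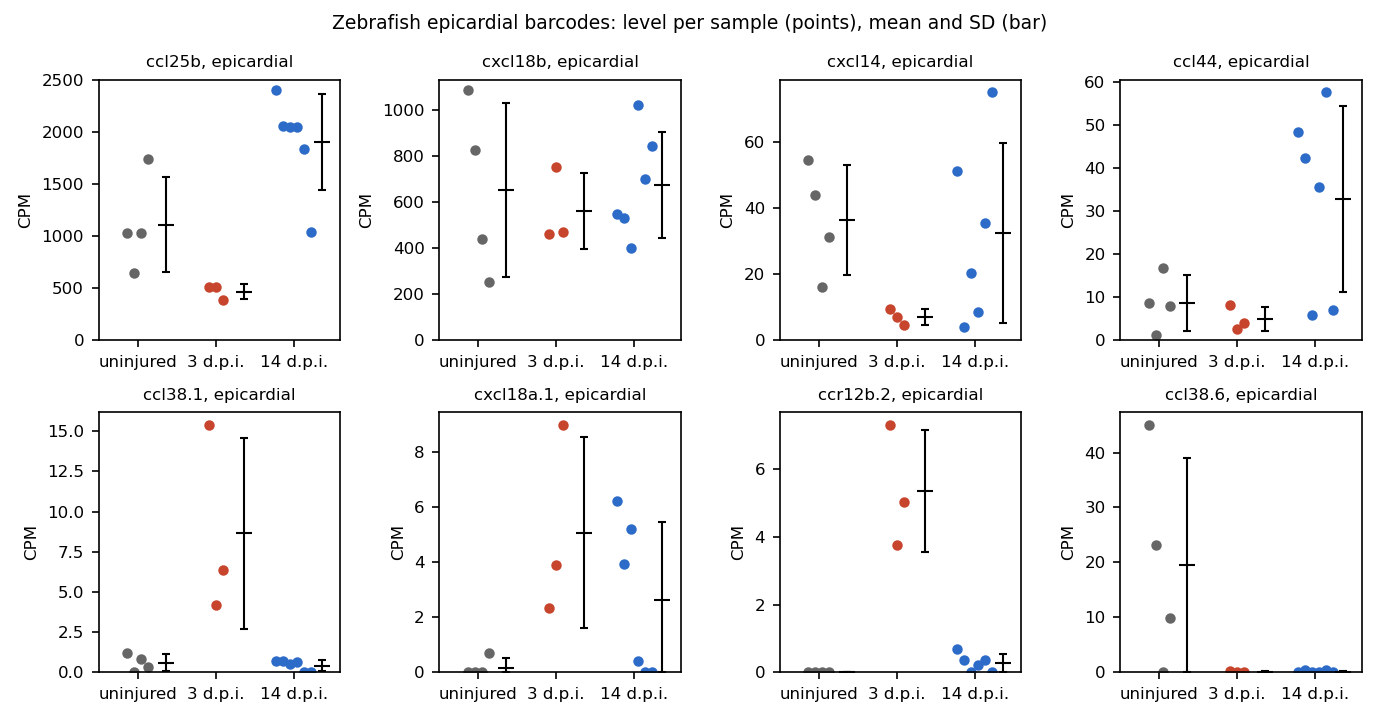
CPM of 8 genes in zebrafish epicardial-like barcodes at uninjured, 3 d.p.i. and 14 d.p.i. (linear axes from 0), where points are samples and bars the mean ± SD. The 3 d.p.i. points of *ccl25b* (382 to 512 CPM) lie under all others, and those of *ccl38.1* (4.17 to 15.4 CPM) above all others.

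*cxcl18b*, the other ligand with many epicardial UMIs, did not pass there. It was at 461, 752 and 471 CPM at 3 d.p.i., against 1090.2, 828, 441 and 254 CPM in uninjured epicardial-like barcodes, with later samples at 400.0 to 1023 CPM, and its log2 change at 3 d.p.i. against uninjured was -0.42 ± 0.49 (adjusted p = 0.541). The share of epicardial-like barcodes with a *cxcl18b* UMI was 58.0%, 88.5% and 67.4% at the 3 times, at median depths of 5152.5, 25004 and 4416 UMIs, and 27.8%, 43.6% and 37.6% once each was thinned to 1000 UMIs, where cardiomyocytes had 0.591%, 1.67% and 0.531%. That thinned order goes against the CPM, so no change is read from it. In endothelial-like barcodes *cxcl18b* was at 144, 347 and 448 CPM at 3 d.p.i., against 86.7, 48.9, 182 and 85.0 CPM in uninjured samples (log2 change 1.67 ± 0.48), which did not pass (adjusted p = 0.0560).

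None of the 11 members tested in endothelial-like barcodes passed at 3 d.p.i. against uninjured in edgeR's test, 4 had an unadjusted p under 0.05, and DESeq2 called 3 (all genes by edgeR, 6.26%). *cxcl20* there was at 84.1, 325 and 309 CPM at 3 d.p.i., against 119, 84.3, 253 and 112 CPM in uninjured samples, with later samples at 125 to 233 CPM, a log2 change of 0.79 ± 0.40 at 3 d.p.i. (adjusted p = 0.257). The ranges overlapped at all 3 times.

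In macrophage-like barcodes 30 members were tested, and 2 rose and 1 fell at 3 d.p.i. against uninjured, where 5.47% of all macrophage genes rose and 2.91% fell. The median log2 change was 0.11 over the members and 0.09 over all genes. Against uninjured and against 3 d.p.i., 0 passed at 14 d.p.i. in edgeR's test (all genes by edgeR, 1.31% and 0.745%). In these comparisons 7 and 5 had an unadjusted p under 0.05, and DESeq2 called 0 in either.

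*ccr12b.2* rose in macrophage-like barcodes as it did in epicardial-like ones. It was at 44.1, 62.1 and 122 CPM at 3 d.p.i., against 0, 0, 11.14 and 17.2 CPM in uninjured samples, with no overlap, and the 14 d.p.i. samples reached 38.61 CPM. The log2 change was 4.61 ± 1.05 (adjusted p = 0.0177, 174 UMIs at 3 d.p.i. and 2 in uninjured samples). The uninjured value rests on 2 UMIs, and the call was lost without uninjured samples 1 and 2 (adjusted p = 0.172), without either of them alone, or without 3 d.p.i. sample 3.

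*ccl34b.8* was at 83.8, 272 and 182 CPM at 3 d.p.i., against 10.1, 14.99, 44.6 and 34.3 CPM in uninjured samples (2.94 ± 0.81, adjusted p = 0.0383). Its 3 d.p.i. samples were all above the uninjured ones. The call was lost without uninjured samples 1 and 2 (adjusted p = 0.242) and when clusters were built with neighbours balanced across samples (log2 change 1.2, adjusted p = 0.442). *ccl39.2* fell (-3.51 ± 0.99, adjusted p = 0.0371) on 8 UMIs at 3 d.p.i. and 42 in uninjured samples. All 42 came from uninjured samples 1 and 2, at 70.7 and 42.0 CPM, and the other uninjured samples were at 0, so without samples 1 and 2 the gene was not tested. A cluster that had *slc3a2a* and *mrc1b* among its leading genes held 78 of the 175 uninjured macrophage-like barcodes, all of them from samples 1 and 2, and 0 of 308 at 3 d.p.i.

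The macrophage-like barcodes themselves were not alike over time, and uninjured samples 3 and 4 gave only 18 and 16 of them. Their macrophage marker list summed to 33698 to 43182 CPM at 3 d.p.i. and 5919 to 9606 CPM in uninjured samples, and their number was 308 at 3 d.p.i. and 175 in uninjured samples. A cluster led by *grn1* and *marco* had *ccr12b.2* at 85.1, 84.4 and 147 CPM in the 3 d.p.i. samples. The part of this shift in the *ccr12b.2* and *ccl34b.8* changes was not tested.

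The most abundant macrophage ligand genes did not pass. *ccl35.1* was at 267 to 971 CPM at 3 d.p.i., against 178 to 815 CPM in uninjured samples, and at 67.5 to 1506 CPM later (0.11 ± 0.82 at 3 d.p.i., adjusted p = 0.961). *ccl34a.4*, named after its values were seen, was at 324, 926 and 2164 CPM at 3 d.p.i., against 257 to 509.8 CPM in uninjured samples, also with overlap. The receptors *cxcr3.2* (-0.34 ± 0.68, adjusted p = 0.806) and *ccr9a* (-0.41 ± 0.59, adjusted p = 0.712) did not pass at 3 d.p.i. either.

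The *cxcl11* genes were carried by single samples. *cxcl11.6* stood at 1027 CPM in macrophage-like barcodes of 14 d.p.i. sample 4 and at 713 CPM in uninjured sample 3, while the other uninjured samples were at 0 to 3.00 CPM and the 3 d.p.i. samples at 6.62, 35.5 and 8.23 CPM. *cxcl11.1* was at 828 CPM in the same 14 d.p.i. sample. There, 12 barcodes of the *grn2* and *mfap4* cluster held 1049 UMIs of *cxcl11.6* and 922 of *cxcl11.1*. At 3 d.p.i. against uninjured *cxcl11.6* had a log2 change of -3.39 ± 2.25 (adjusted p = 0.370), which gives no direction.

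**Figure D3:**
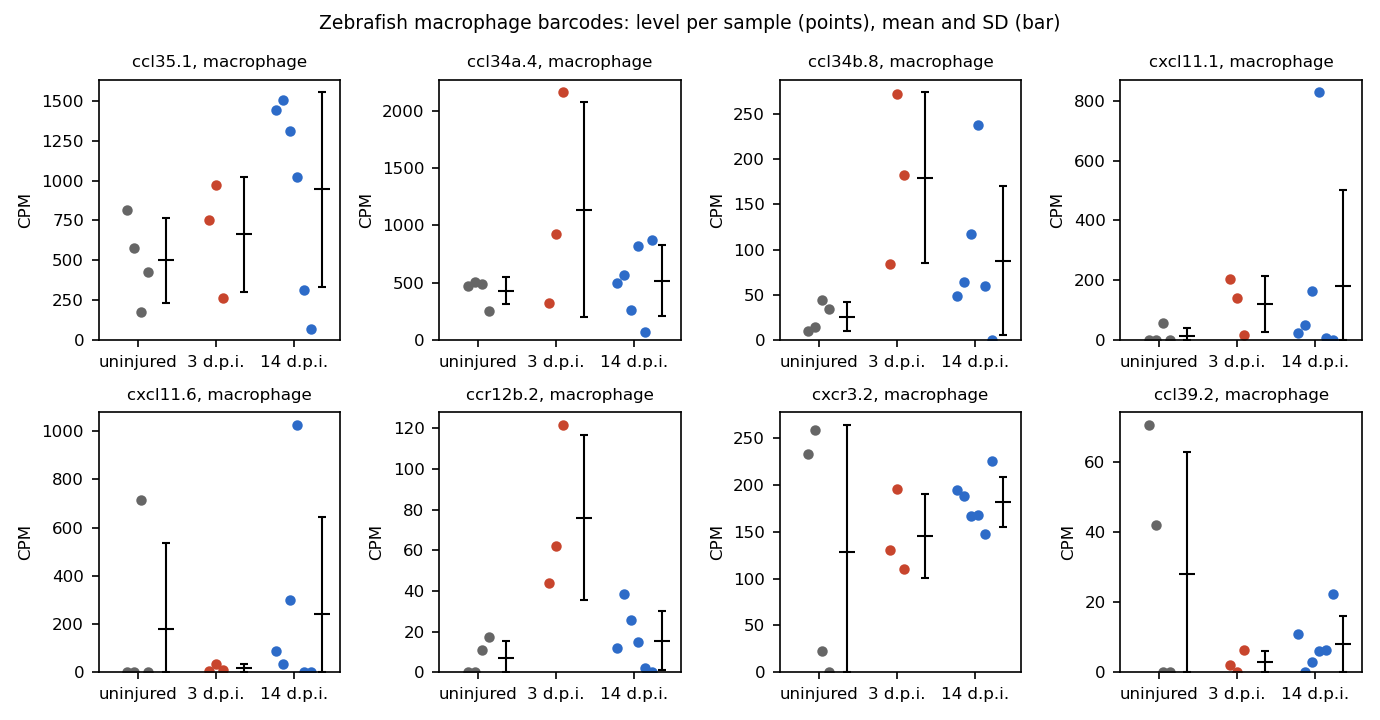
CPM of 8 genes in zebrafish macrophage-like barcodes at uninjured, 3 d.p.i. and 14 d.p.i. (linear axes from 0), where points are samples and bars the mean ± SD. *ccr12b.2* (44.1 to 122 CPM) and *ccl34b.8* (83.8 to 272 CPM) at 3 d.p.i. lie above the uninjured points, and 1 sample carries *cxcl11.1* and *cxcl11.6* at 14 d.p.i.

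In T or NK-like barcodes none of 9 members passed in any comparison by edgeR or by DESeq2, with 0 (3 d.p.i. against uninjured), 1 (14 d.p.i. against uninjured) and 0 (14 against 3 d.p.i.) at an unadjusted p under 0.05. Of all genes of the type, 0%, 0.139% and 0.139% passed by edgeR. *ccl34b.4* was at 3921, 7951 and 7867 CPM at 3 d.p.i., against 1402, 1196, 3999 and 1644 CPM in uninjured samples, and at 1101 to 9005 CPM in the 5 later samples with enough barcodes (1.40 ± 0.67 at 3 d.p.i., adjusted p = 0.454). *ccl38.6* was at 6020.0, 2795 and 745 CPM at 3 d.p.i., against 1871 to 4995 CPM in uninjured samples (-0.21 ± 0.63, adjusted p = 0.889). These values rest on 183, 104 and 224 barcodes at the 3 times.

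Cardiomyocytes held 1 chemokine of their own, *ccl20b*, named after its values were seen, with 92.2% of 2540 UMIs. Ccl20 is the ligand of Ccr6. Its cardiomyocyte level was 2.47, 4.91 and 15.3 CPM at 3 d.p.i., under the 20.2, 16.5, 46.6 and 41.7 CPM of uninjured samples without overlap, but it did not pass (-2.56 ± 1.00, adjusted p = 0.187). Of 9 members tested in cardiomyocytes, 0 passed in edgeR's test, 4 had an unadjusted p under 0.05 and DESeq2 called 2, both higher (all genes by edgeR, 2.13%).

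Over all kept zebrafish barcodes, 2 of 43 members rose at 3 d.p.i. against uninjured and 0 fell (all genes, 5.31% and 4.88%), and 1 rose and 0 fell at 14 d.p.i. (all genes, 0.921% and 1.33%). *ccr12b.2* was at 2.03, 2.13 and 8.13 CPM at 3 d.p.i., against 0, 0, 0.307 and 0.179 CPM in uninjured samples (4.82 ± 1.06, adjusted p = 0.0155). *ccr6a*, the receptor of Ccl20, rose at both times, at 1.07, 0.709 and 1.65 CPM at 3 d.p.i. (3.48 ± 0.79, adjusted p = 0.0175) and 0.4662 to 2.19 CPM at 14 d.p.i. (3.60 ± 0.74, adjusted p = 0.0295), against 0, 0, 0.123 and 0.179 CPM in uninjured samples. Without 3 d.p.i. sample 3 both 3 d.p.i. calls were lost (adjusted p = 0.0872 for *ccr12b.2* and 0.0798 for *ccr6a*), and leaving out 1 sample ended the *ccr6a* call at 14 d.p.i. in 8 of 13 cases (adjusted p up to 0.0698). The macrophage marker list of all barcodes was 864 to 2529 CPM at 3 d.p.i. and 181 to 320.3 CPM in uninjured samples, so more macrophages and more *ccr12b.2* per macrophage cannot be told apart in these sums.

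From 3 to 14 d.p.i., 0 of the 43 members passed in edgeR's test (all genes by edgeR, 2.9%), 7 had an unadjusted p under 0.05 and DESeq2 called 4. *xcr1b.3*, named after its values were seen, an XC receptor and a relative of the receptor that marks a dendritic cell subset in mammals, is missing from the gene list of uninjured samples 1 and 2 and could be fitted only without them. It was at 0.850, 0.665 and 0.720 CPM at 3 d.p.i., against 0.123 and 0.0715 CPM in the 2 other uninjured samples (log2 change 2.94 ± 0.78, adjusted p = 0.0252), and it was also higher at 14 d.p.i. against uninjured (3.18 ± 0.75, adjusted p = 0.0366). Within macrophage-like barcodes, which held 92.7% of its 151 UMIs, it did not pass at 3 d.p.i. (adjusted p = 0.0843) or later (adjusted p = 0.170), with 0 UMIs in the 18 and 16 uninjured barcodes.

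In medaka, both CC ligands were highest in epicardial-like barcodes, and the receptors in lymphocyte-like and myeloid-like barcodes, where macrophages and granulocytes could not be named apart. *ccl25b* averaged 906 ± 315 CPM in epicardial-like barcodes (SD, n = 6), and *ccl25a* 48.3 ± 21.6 CPM (SD, n = 6). Of the 20872 *ccl25b* UMIs, 32% lay in endothelial-like and 30.8% in unnamed barcodes.

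In myeloid-like barcodes *cxcr3.2* averaged 610.0 ± 159.7 CPM and was highest there in 9 of 9 samples, with 69.9% of 10533 UMIs. *cxcr3.3* (255 ± 277 CPM), *ccr12a* (43.8 ± 18.7 CPM) and the ligand *cxcl19* (37.3 ± 34.9 CPM) were also highest there in 9 of 9 samples (SD, n = 9). A *cxcr3.2* UMI was found in 61.4% of uninjured myeloid-like barcodes, in 58.0% of those from 3 d.p.i. and in 69.2% of those from 14 d.p.i., at median depths of 3376, 5416 and 3891 UMIs, and in 0.253%, 0.922% and 0.215% of cardiomyocytes at 12562, 15338 and 13166 UMIs.

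Among lymphocytes, *ccr7*, which in mammals brings T cells and dendritic cells into lymph nodes, averaged 99.2 ± 69.0 CPM in T or NK-like barcodes (SD, n = 9), with 80.8% of 1545 UMIs. *CCR8* was highest there in 7 of 9 samples (43.8 ± 32 CPM), although endothelial-like barcodes held 41.6% of its 1573 UMIs. *cxcr5* (78.9 ± 69.5 CPM, 82.5% of 160 UMIs) and *ccr9b* (84.3 ± 66.0 CPM) were highest in B-like barcodes (SD, n = 8), and myeloid-like barcodes had *ccr9b* at 52.0 ± 33.8 CPM (SD, n = 9), within that spread. *ccr10* had 71 UMIs in all.

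**Figure D4:**
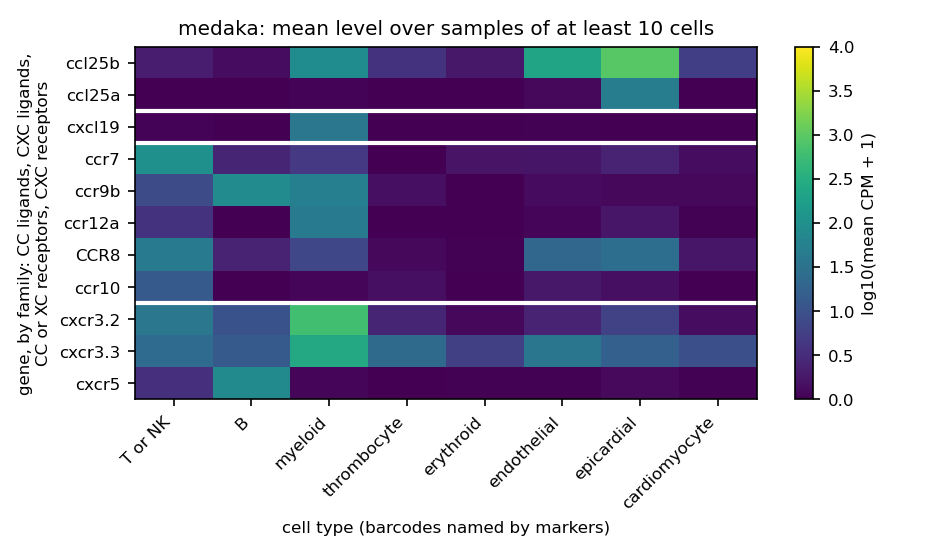
Heat map of the mean level of the named medaka genes (rows, by family) in each cell type (columns), as log10 of mean CPM plus 1 over samples with at least 10 barcodes of the type. The epicardial column holds the CC ligands (*ccl25b*, 906 CPM), the myeloid column *cxcr3.2* (610.0 CPM) and *cxcr3.3* (255 CPM), and the T or NK column *ccr7* (99.2 CPM).

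Over all kept medaka barcodes, 2 of 11 members rose and 3 fell at 3 d.p.i. against uninjured, where 15.1% of all genes rose and 15.5% fell. Of the 14 d.p.i. comparisons, 0 passed against uninjured and 0 against 3 d.p.i. in edgeR's test (all genes by edgeR, 0.774% and 11.9%). In each, 3 members had an unadjusted p under 0.05, and DESeq2 called 1 and 3.

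*ccl25b* was at 8.42, 3.79 and 40.1 CPM over all barcodes at 3 d.p.i., against 212, 97.5, 293 and 79.2 CPM in uninjured samples (-3.27 ± 0.86, edgeR adjusted p = 0.0194), and at 149 and 97.6 CPM at 14 d.p.i. *ccl25a* was at 0.157, 0 and 0.207 CPM at 3 d.p.i., against 13.4, 3.47, 1.23 and 0.924 CPM in uninjured samples (-5.44 ± 1.40, adjusted p = 0.0180). Both groups of 3 d.p.i. samples lay under every other sample. Both calls were lost without 3 d.p.i. sample 1 or 2 (adjusted p up to 0.0667 and 0.0672).

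Only 9 medaka barcodes at 3 d.p.i. were named epicardial-like, 0 to 8 per sample, against 622 in uninjured samples (274 at 14 d.p.i.), so no test within the type was possible at 3 d.p.i. The epicardial marker list summed over all barcodes was not lower, at 1777 to 2883 CPM at 3 d.p.i. and 769.5 to 1392 CPM in uninjured samples. This sum does not show which genes of the list or which cells carried it, so it does not count epicardial cells. Fewer epicardial cells and less *ccl25b* per cell cannot be told apart here. In endothelial-like barcodes *ccl25b* was at 18.1, 8.70 and 150.4 CPM at 3 d.p.i., against 681, 181, 500.5 and 111 CPM in uninjured samples, which overlapped and did not pass (-2.65 ± 1.1, adjusted p = 0.103). At 14 d.p.i. the epicardial-like level of *ccl25b* was 1328 and 944 CPM, against 527, 1136, 939.6 and 561 CPM in uninjured samples (0.71 ± 0.48, adjusted p = 0.850).

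*ccr7* fell in the same comparison, at 1.02, 0.309 and 1.72 CPM at 3 d.p.i., against 26.2, 26.6, 4.32 and 4.49 CPM in uninjured samples (-4.14 ± 1.02, adjusted p = 0.0154), and it too was lost without 3 d.p.i. sample 1 or 2 (adjusted p up to 0.0634). T or NK-like barcodes numbered 54 at 3 d.p.i. and 2156 in uninjured samples, and the T-lymphocyte list summed to 3.56 to 6.47 CPM at 3 d.p.i. and 31.7 to 91.1 CPM in uninjured samples. Within T or NK-like barcodes *ccr7* was at 25.3, 0 and 117 CPM at 3 d.p.i. and 59.7 to 237 CPM in uninjured samples (-2.23 ± 0.99, adjusted p = 0.303), with overlap, and the median change of all genes in that fit was -0.33.

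*ccr12a* and *cxcr3.2*, the myeloid receptors, rose in the sums. *ccr12a* was at 11.2, 6.88 and 7.23 CPM at 3 d.p.i., against 0.880, 0.682, 3.16 and 2.64 CPM in uninjured samples (2.31 ± 0.36, adjusted p = 0.00276). *cxcr3.2* was at 138, 71.8 and 95.9 CPM at 3 d.p.i., against 18.4, 23.5, 67.7 and 50.0 CPM in uninjured samples (1.44 ± 0.31, adjusted p = 0.00922). Neither overlapped, and both calls held without any 1 sample.

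Within myeloid-like barcodes neither gene passed. *cxcr3.2* was at 543, 461 and 441 CPM at 3 d.p.i. and 499, 639, 931 and 628 CPM in uninjured samples (-0.75 ± 0.25, adjusted p = 0.0831), and *ccr12a* was at 56.5, 49.0 and 42.3 CPM at 3 d.p.i. and 22.9, 13.0, 46.0 and 32.5 CPM in uninjured samples (0.48 ± 0.31, adjusted p = 0.358). Of 7 members tested in myeloid-like barcodes 0 passed by edgeR, 4 had an unadjusted p under 0.05 and DESeq2 called 3 lower (all genes by edgeR, 9.38%). The myeloid-like barcodes of these times came largely from different clusters. A cluster with *slc43a3b* and *mrc1b* among its leading genes held 2.26% of them at 3 d.p.i. and 40.2% in uninjured samples, and one with *arl5c* and *tnip2* 1.18% at 3 d.p.i. and 38.4% in uninjured samples. A cluster led by *adam8a* and *apoeb* held 27.5% at 3 d.p.i. and 0.487% in uninjured samples, and one with *mmp13b* and *mmp9* 24.6% at 3 d.p.i. and 0.122% in uninjured samples. At 3 d.p.i. *cxcr3.2* was at 82.0, 176 and 135 CPM in the *adam8a* cluster, and at 709 and 634 CPM in the *mmp13b* cluster in the 2 samples with enough barcodes. The part of these shifts in the myeloid values was not tested. Myeloid-like barcodes made up 8.06% to 15.1% of kept barcodes at 3 d.p.i. and 2.69% to 10.8% in uninjured samples. Of 20 pairs of a medaka member and a cell type tested at 3 d.p.i. against uninjured, 0 rose and 1 fell, where 6.42% of all pairs rose and 5.23% fell.

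That call was *cxcr3.3* in endothelial-like barcodes, at 22.7, 28.5 and 22.4 CPM at 3 d.p.i. and 28.0, 25.4, 69.5 and 62.8 CPM in uninjured samples (-0.90 ± 0.31, edgeR adjusted p = 0.0479). The groups overlapped, and leaving out 1 sample ended the call in 7 of 9 cases (adjusted p up to 0.158). In this type a cluster led by *her12* held 87.4% of barcodes at 3 d.p.i. and 3.81% in uninjured samples, and 13.3% of all endothelial genes fell.

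In medaka B-like barcodes, both members tested fell at 14 d.p.i. against uninjured, where 0.203% of all genes of the type fell. Over all cell types, 0 of 25 pairs rose and 2 fell against uninjured (all genes, 1.22% and 0.176%), and against 3 d.p.i. 0 of 20 rose and 1 fell (1.08% and 1.09%). *cxcr5* was at 6.58 and 4.62 CPM at 14 d.p.i., against 41.8, 41.8, 65.1 and 183 CPM in uninjured samples and 164 and 125 CPM in the 3 d.p.i. samples with enough barcodes. Both 14 d.p.i. samples lay under every other. The log2 change at 14 d.p.i. was -3.18 ± 0.67 against uninjured (adjusted p = 0.0289, 6 and 103 UMIs) and -3.89 ± 0.76 against 3 d.p.i. (adjusted p = 0.0349, a direction in which 0.081% of all B-like genes passed).

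*ccr9b* was at 0 and 4.62 CPM at 14 d.p.i. (1 UMI), against 139, 92.5, 18.1 and 126 CPM in uninjured samples (101 UMIs), a ratio of 0.0113 with a 95% counting interval of 0.000283 to 0.0642 (adjusted p = 0.0349). At 3 d.p.i. it was at 143 and 149.7 CPM. The B-lymphocyte marker list was 2486 to 2722 CPM at 14 d.p.i. and 2324 to 3405 CPM in uninjured samples. A cluster led by *cd79a*, the gene of a B-cell receptor subunit, held 83.3% of B-like barcodes at 14 d.p.i. and 88.9% of uninjured ones. Within it *cxcr5* was at 8.01 and 5.73 CPM at 14 d.p.i. and 41.8 to 185 CPM in uninjured samples.

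These B-cell calls rest on 2 samples at 14 d.p.i. *ccr9b* lost its call without uninjured sample 2 or 4 or 3 d.p.i. sample 2 or 3 (adjusted p up to 0.120). *cxcr5* lost its call against uninjured without 3 d.p.i. sample 3 (adjusted p = 0.0543) and against 3 d.p.i. without uninjured sample 3 (adjusted p = 0.0717). With clusters built from neighbours balanced across samples none of these calls passed (adjusted p = 0.370 and 0.511 for *cxcr5* against uninjured and against 3 d.p.i., and 0.128 for *ccr9b*).

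**Figure D5:**
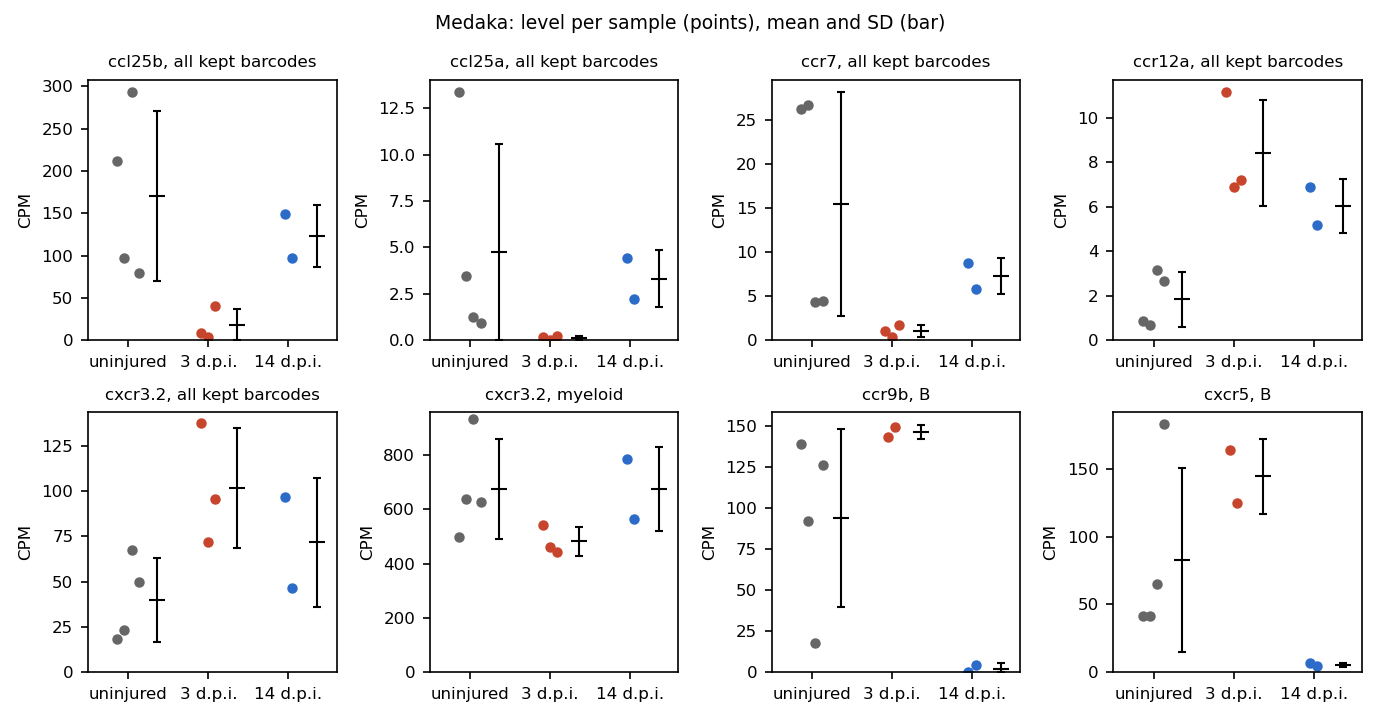
CPM of medaka genes over all kept barcodes and in myeloid-like and B-like barcodes at uninjured, 3 d.p.i. and 14 d.p.i. (linear axes from 0), where points are samples and bars the mean ± SD. *ccl25b* over all barcodes is at 3.79 to 40.1 CPM at 3 d.p.i. with all other samples above, *cxcr3.2* at 3 d.p.i. lies above the uninjured points over all barcodes but overlaps them in myeloid-like ones, and *cxcr5* and *ccr9b* in B-like barcodes are at 0 to 6.58 CPM at 14 d.p.i.

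Other genes of the pathway came from 3 lists. Of the 9 chemokine and receptor symbols left out by the rule, 6 were tested in zebrafish epicardial-like barcodes and 2 rose at 3 d.p.i. against uninjured, *cxcl12a* (1.31 ± 0.40, edgeR adjusted p = 0.0242), a ligand that retains leukocytes and guides vessels, and *cxcl8a* (4.1 ± 0.79, adjusted p = 0.00236), a ligand that draws in neutrophils (all epicardial genes, 15.7% rose). Between 3 and 14 d.p.i. *cxcl8a* fell (-3.38 ± 0.62) and *cxcl12b* rose (2.61 ± 0.85, adjusted p = 0.00201 and 0.0360). Of all epicardial genes, 15% fell and 10.9% rose in that comparison.

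Of 6 atypical receptors, which take up chemokines without signalling, 3 were tested in zebrafish epicardial-like barcodes and 2 in medaka endothelial-like ones. At 3 d.p.i. against uninjured 1 fell in the zebrafish barcodes (all genes, 13.7%), and later, at 14 against 3 d.p.i., 1 rose (10.9%). In the medaka ones 1 rose and 1 fell at 3 d.p.i. (all genes, 15.2% and 13.3%). Over all medaka barcodes 1 of 3 rose and 1 fell then (15.1% and 15.5%). The 1 tested in zebrafish erythroid-like barcodes fell at 3 d.p.i. (log2 change -3.52, median of all genes 0.19). Its uninjured side was samples 1 and 2 alone (314 and 383 barcodes), as samples 3 and 4 had 2 and 7. The share of all erythroid genes that fell is not given, so no result is read from this call. *ackr4b*, a scavenger of Ccl19, Ccl21 and Ccl25, fell at 3 d.p.i. in zebrafish epicardial-like barcodes (-2.58 ± 0.82, adjusted p = 0.0299) and rose again at 14 d.p.i. against 3 d.p.i. (2.29 ± 0.78, adjusted p = 0.0435). In medaka endothelial-like barcodes *ackr4b* rose at 3 d.p.i. (3.92 ± 0.61, adjusted p = 0.00150) and fell at 14 d.p.i. against 3 d.p.i. (-2.57 ± 0.63, adjusted p = 0.0339). *ackr3a*, a scavenger of Cxcl12, fell in the same medaka barcodes at 3 d.p.i. (-0.73 ± 0.23, adjusted p = 0.0386).

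Of 27 genes of receptor signalling and migration, 17 were tested in zebrafish epicardial-like barcodes, where 1 rose and 2 fell at 3 d.p.i. against uninjured (all genes, 15.7% and 13.7%). *rac2*, the Rac of leukocytes, rose (2.98 ± 0.57, adjusted p = 0.00223). In these barcodes the macrophage list was at 291 to 443 CPM at 3 d.p.i. and 148 to 243 CPM in uninjured samples. The general leukocyte list was not higher there at 3 d.p.i., and the part of macrophage RNA in the *rac2* change was not tested. The genes *prex1* (-2.16 ± 0.59, adjusted p = 0.0142), an activator of Rac, and the Src-family kinase *lyn* (-1.18 ± 0.38, adjusted p = 0.0292) fell. In zebrafish macrophage-like barcodes 1 of 16 rose, *hck* (1.51 ± 0.44, adjusted p = 0.0427), and 2 fell, *prex1* (-1.69 ± 0.41, adjusted p = 0.0212) and the G protein subunit gene *gnai2b* (-2.07 ± 0.56, adjusted p = 0.0316), where 5.47% of all genes rose and 2.91% fell. Uninjured samples 1 and 2 gave 61 and 80 of the 175 uninjured barcodes of this type, and these calls are not given without them. In zebrafish endothelial-like barcodes 2 of 17 rose, *rac2* (2.07 ± 0.48, adjusted p = 0.0265) and *gnb2* (1.01 ± 0.25, adjusted p = 0.0340), against 2.93% of all genes, and 0 fell. Over all medaka barcodes 5 of 17 rose at 3 d.p.i. and 0 fell (all genes, 15.1% and 15.5%), with log2 changes of 0.56 to 1.94. In medaka endothelial-like barcodes 1 of 14 rose, *gnb2* (1.16 ± 0.28, adjusted p = 0.0115), and 2 fell, *prex1* (-1.84 ± 0.39, adjusted p = 0.00671) and *lyn* (-0.71 ± 0.19, adjusted p = 0.0171), where 15.2% of all genes rose and 13.3% fell. In myeloid-like ones 2 of 15 fell, *prex1* (-0.87 ± 0.22, adjusted p = 0.0305) and *pik3r5* (-1.06 ± 0.25, adjusted p = 0.0213), and 0 rose (all genes, 4.34% fell). No list as a whole was tested.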

How the data were processed

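Whole-ventricle suspensions were sequenced on the 10x Chromium system. The files deposited hold raw UMI counts, which came from Cell Ranger with its defaults (3.1.0 or 5.0.0 per the file headers) and, for zebrafish, from GRCz11. The rule for members uses gene names alone, but the family and the lists were chosen with earlier results of these data known.

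Barcodes with at least 200 genes and at most 40% of UMIs from mt-named entries were kept per species (Python 3.11.15, scanpy 1.11.5), without members among the markers. Mitochondrial limits on barcodes counted these entries alone. Log-normalized counts of 2000 variable genes gave 30 principal components, 20 neighbours and Leiden clusters at resolution 1.5, and 1.0 within leukocytes. Variable genes were chosen without the members and without the chemokine genes left out by the rule. A cluster was named from at least 3 marker genes, otherwise it stayed unnamed. Scrublet called only 124 of 80138 barcodes and was therefore not relied on.

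UMIs were summed per sample and type, where a sample had at least 10 barcodes, and tested with edgeR 4.0.16 (R 4.3.3, TMM, default low-count filter, robust quasi-likelihood) in 1 fit of 3 times per type, with adjusted p over all genes. CPM used nuclear UMIs. Shares were also computed after thinning to 1000 UMIs, and counting intervals cover counting error only. Named members passed the threshold anywhere or were among the 5 highest of their family in a species, with at least 20 UMIs. The test was also run on simulated counts with planted changes. Outcomes of that run are not given, and no call here rests on it. Alternatives were DESeq2 1.42.0, RLE size factors, no low-count filter, 15% mitochondrial UMIs, 500 genes, another clustering resolution, balanced neighbours, a replicate block and leaving samples out. Leaving out the 5% highest doublet scores was added after the data were seen.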

Additional observations from a re-analysis of the deposited data

Results flagged for a closer look

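Of 82 groups of 4 to 6 samples over 53 pairs of a named gene and a cell type, 15 had 1 sample far from the others. The cutoff flags about 1 in 20 groups only where values follow a normal curve. A sparse gene counted in 1 sample alone always passes it, so the 15 are not set against chance. Several of these lie in zebrafish macrophage-like barcodes. There uninjured sample 3 stood out for *cxcl11.1* (55.7 CPM, the others at 0), *cxcl11.5* (256 CPM, the others at 0), *cxcl11.6* (713 CPM, next 3.00) and *cxcl14* (379 CPM, next 34.3). The 14 d.p.i. sample 4 stood out for *cxcl11.1* (828 CPM, next 165), *cxcl11.5* (642 CPM, next 153) and *cxcl11.6* (1027 CPM, next 299), and 14 d.p.i. sample 5 for *cxcl14* (10.7 CPM, next 2.70). Uninjured sample 4 was lowest for *ccl38.1* (34.3 CPM on 2 UMIs, next 88.3).

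In zebrafish T or NK-like barcodes uninjured sample 3 was highest for *ccl34b.4* (3999 CPM, next 1644) and 14 d.p.i. sample 5 for *ccl39.6* (141 CPM on 5 UMIs, the others at 0). In zebrafish epicardial-like barcodes uninjured sample 1 was highest for *ccl34b.4* (40.2 CPM, next 6.76) and uninjured sample 4 for *cxcl18a.1* (0.711 CPM on 2 UMIs, the others at 0). In mural-like barcodes 14 d.p.i. sample 1 was highest for *cxcl18a.1* (13.7 CPM on 1 UMI). In medaka B-like barcodes uninjured sample 4 was highest for *cxcr5* (183 CPM, next 65.1).

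Barcodes that received no cell type held much of 3 genes, of which *ccl34b.9* and *ccl27a* were named after their values were seen. Medaka *cxcl19* had 814 of 1233 UMIs there, 725 of them in 319 barcodes of a cluster led by *gpnmb*. Zebrafish *ccl34b.9* had 415 of 476 UMIs, 413 of them in 184 barcodes of a cluster led by *spink2.2* and related genes. Zebrafish *ccl27a* had 69 of 77 UMIs, all in 64 barcodes of a keratin cluster (*krt5*, *krt97*) from 1 sample at 14 d.p.i. These clusters entered no test.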

How the results depend on the processing

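No call reversed direction under any alternative. Of 29 calls, 10 were kept in every fit without 1 sample that tested them, 15 in every other alternative that tested them and 9 in all of both. Not every fit tested every call. In epicardial-like barcodes *ccl38.1* and *ccr12b.2* were tested in only 7 of 13 fits without 1 sample. The *ccl38.6* calls there were not tested without uninjured samples 1 and 2. Leaving out each sample in turn, the number of called pairs ranged from 2 to 10 in zebrafish at 3 d.p.i. against uninjured, 0 to 2 at 14 d.p.i. against uninjured, 3 to 6 at 14 against 3 d.p.i. and 1 to 4 over all barcodes. In medaka it ranged from 0 to 2, 0 to 2, 0 to 1 and 2 to 6.

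The zebrafish count at 3 d.p.i. (10) was 6 with balanced neighbours. At 14 d.p.i. against uninjured (1) it was 3 with DESeq2, 2 with at least 500 genes, 0 at the higher resolution, 9 without the low-count filter and 5 without uninjured samples 1 and 2. Over all barcodes (3 for the 3 comparisons) it was 14 with DESeq2 and 8 without uninjured samples 1 and 2. The medaka count at 3 d.p.i. (1) was 5 with DESeq2, 0 with RLE size factors, 4 at the higher resolution, 3 with balanced neighbours, 9 without the filter and 0 without the 14 d.p.i. samples. At 14 d.p.i. against uninjured (2) it was 1 with at least 500 genes, 1 with at most 15% mitochondrial UMIs, 0 with balanced neighbours and 4 without the filter. At 14 against 3 d.p.i. (1) it was 3 with DESeq2, 0 with at least 500 genes, 3 at the higher resolution, 0 with balanced neighbours, 4 without the filter and 3 without the 5% highest doublet scores. Over all medaka barcodes (5) it was 9 with DESeq2. More members were tested without the filter, and the causes of the other differences were not tested. The share of all genes called is not given for these alternatives, the fits without 1 sample or the replicate block. Their counts are therefore not read as results about the members.

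In sums over all kept barcodes, samples of the same replicate number showed correlations of mixed sign (-0.234 to 0.244 in zebrafish and -0.157 to 0.104 in medaka). The main fit does not use the numbers as pairs. Such sums also follow the cell makeup, so they cannot tell whether samples shared a batch. With the replicate block the counts were 8, 2, 5 and 2 in zebrafish and 3, 2, 2 and 6 in medaka, in the order above.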
